A study of Mus musculus with 24 samples.

Results

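The genes examined here encode the subunits, activators and assembly factors of the proteasome, measured in brain and liver of neonatal mice. Members were the array probes, control spots excluded, whose gene name in the scanner files begins with Psm, a letter from a to g and a digit. There were 68 such probes for 44 gene names among 41174 probes on the array. Of these, 66 were kept because some group, of the 6 studied, had them well above background on each of its 4 arrays, a filter that kept 30032 probes and 19881 gene names in all. The 2 probes left out, 1 for Psma2 and 1 for Psmd11, were above background on 0 arrays, and each of the 44 names kept at least 1 probe. By role there were 8 core alpha subunits, 7 constitutive core beta subunits, 3 immunoproteasome subunits, 6 base ATPases, 11 other base and lid subunits, 4 activators, and 4 assembly factors or inhibitors. The remaining name, Psmc3ip, is a meiotic recombination factor named for its contact with Psmc3; it is no subunit and matched by its letters. No name beginning with Psmg matched.

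Each tissue had 3 groups of 4 arrays. G20 animals were cumulus-cell clones of generation 20 of serial cloning, in which clones supply the donor nuclei for the next clones. CC animals were clones made from cumulus cells, the somatic cells around the oocyte. NC animals were the controls, conceived by injecting a sperm into the oocyte (ICSI). All were neonatal females of the cross (C57BL/6 x DBA2) x 129/Sv, so the controls too were made by manipulating the oocyte. The G20 samples share a single source name and differ only by number, so the labels do not show that they came from separate animals, and p-values then measure the spread between samples, which may be technical. In NC and CC, brain and liver with the same number carry the same animal name. The study asked whether reprogramming errors build up over serial recloning.

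The proteasome degrades proteins tagged with ubiquitin. Its core particle is a barrel of alpha rings, which control entry, and beta rings, which hold the catalytic sites of Psmb5, Psmb6 and Psmb7. A regulatory particle caps the barrel: its base of Psmc ATPases unfolds substrates and its lid removes ubiquitin. Interferon induces the alternative catalytic subunits Psmb8, Psmb9 and Psmb10, which replace the constitutive ones to form the immunoproteasome, together with the Psme1 and Psme2 activator. Immunoproteasomes are abundant in immune cells and make peptides for display on class I major histocompatibility molecules, whereas neurons are known for having little of them.

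The promoters of the inducible subunits Psmb8, Psmb9 and Psmb10 and of the constitutive Psmb5 and Psmb6 are shown because Psmb8 and Psmb9 had the widest gaps between the tissues, Psmb10 is the third inducible subunit, and Psmb5 and Psmb6 are constitutive counterparts. The sequences are the 250 bases before the start of each gene, 5′ to 3′ on the gene's strand, from RefSeq on build GRCm38.p6. Psmb8 was read at chr17:34197945-34198194 on the plus strand, Psmb9 at chr17:34187331-34187580 on the minus strand, Psmb10 at chr8:105938393-105938642 on the minus strand, Psmb5 at chr14:54617996-54618245 on the minus strand and Psmb6 at chr11:70525107-70525356 on the plus strand. Capitals mark matches to a GAS-like motif (TTCNNNGAA, the form bound by STAT factors) or an ARE-like motif (TGACNNNGC, the form bound by Nfe2l1 and Nfe2l2), searched on both strands.
Psmb8: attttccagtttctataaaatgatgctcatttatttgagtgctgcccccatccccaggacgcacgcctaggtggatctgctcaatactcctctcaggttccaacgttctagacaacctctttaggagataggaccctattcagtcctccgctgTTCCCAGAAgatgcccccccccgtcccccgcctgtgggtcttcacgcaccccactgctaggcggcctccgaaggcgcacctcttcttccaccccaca
Psmb9: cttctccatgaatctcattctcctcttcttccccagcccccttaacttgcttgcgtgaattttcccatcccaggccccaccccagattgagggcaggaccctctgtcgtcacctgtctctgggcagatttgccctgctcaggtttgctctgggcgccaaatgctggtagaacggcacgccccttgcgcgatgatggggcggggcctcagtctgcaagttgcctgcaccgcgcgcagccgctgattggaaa
Psmb10: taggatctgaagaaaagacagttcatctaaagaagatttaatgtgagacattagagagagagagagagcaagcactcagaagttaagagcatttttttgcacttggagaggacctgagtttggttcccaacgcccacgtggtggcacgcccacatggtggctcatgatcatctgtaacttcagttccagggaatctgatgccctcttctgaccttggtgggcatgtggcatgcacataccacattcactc
Psmb5: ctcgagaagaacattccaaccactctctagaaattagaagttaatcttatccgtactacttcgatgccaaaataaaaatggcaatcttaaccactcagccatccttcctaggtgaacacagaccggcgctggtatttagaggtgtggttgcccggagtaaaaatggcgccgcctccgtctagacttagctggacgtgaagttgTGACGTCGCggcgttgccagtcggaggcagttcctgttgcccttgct
Psmb6: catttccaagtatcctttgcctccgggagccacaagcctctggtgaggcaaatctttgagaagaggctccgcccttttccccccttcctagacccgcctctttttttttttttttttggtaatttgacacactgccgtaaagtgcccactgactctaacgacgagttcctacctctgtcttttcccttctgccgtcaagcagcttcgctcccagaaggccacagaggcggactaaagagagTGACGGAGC
The GAS-like motif was found in the Psmb8 promoter alone among the 40 promoters available for 37 members (2.5%), against 7.02% of all 32851 promoters. The ARE-like motif was found in 5 member promoters (12.5%), those of Psmb5, Psmb6, Psmc6, Psmd12 and Psmd9, against 10.2% of all. An ISRE-like motif (GAAA, any 2 bases, GAAA, the form bound by interferon regulatory factors) was found in those of Psmb3, Psmd4 and Psmd9 (7.5%, against 2.98% of all) and in 0 of the 6 promoters of Psmb8, Psmb9, Psmb10, Psme1 and Psme2. The CCAAT box (CCAAT) was found in 14 (35%), that of Psmb9 included, against 33.8% of all. These are matches of letters within 250 bases and no more.

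Levels are given as the log2 of the scanner's processed signal minus the log2 of that array's 75th percentile, so that 0 is the 75th percentile of all probes and 1 unit is a doubling. Levels of different probes are not comparable with each other. Where a gene had several probes, the one with the highest mean level over the fitted arrays was used, and 4 members (Psma4, Psmb8, Psmd9 and Psmf1) were read by different probes in the brain and liver fits. The probes used for the members were well above background on all 24 arrays, 0 were saturated, and 0 member spots were marked as outliers. On the arrays, 53.6% to 70.6% of all probes were well above background. The unscaled 75th percentile was 724 to 864 in G20, 403 to 467 in CC and 814 to 937 in NC for brain. For liver it was 441 to 561 in G20, 242 to 270 in CC and 276 to 341 in NC. Each group lay on a slide of its own, and the effects of slide and group cannot be told apart. G20 and NC of a tissue were scanned in the same session, liver 49 days before brain, and CC of both tissues in a session of their own, 221 days after the first. All 6 neuron markers were higher in brain and all 6 hepatocyte markers lower in brain in each of the 3 groups, so the tissue labels hold.

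The comparison of G20 with NC addresses whether proteasome gene expression differed after serial cloning. No member passed the test in either tissue. In brain 0 of 44 members were called by limma at a Benjamini-Hochberg adjusted p under 0.05, where 1.79% of 18299 genes were called. In liver the count was also 0 of 44, where 7.23% of 16364 genes were called. At an unadjusted p under 0.05 there were 4 members in brain (all genes, 19.2%) and 4 in liver (all genes, 23.8%). Member differences, G20 minus NC, ranged from -0.29 (Psmc3) to 0.27 (Psmb6) in brain, with a median of -0.0084 against 0.032 over all genes. In liver they ranged from -0.30 (Psmc4) to 0.25 (Psmb6), with a median of -0.054 against 0.030 over all genes. The direction was not stable for most liver members. Over 7 settings tried, this one included, 3 members were lower and 6 higher in G20 liver in each setting. In brain the counts were 21 lower and 14 higher. Of these settings, here and below, no filter on dim probes and the replicate number as a block leave the members' differences unchanged. Most liver members that changed direction did so in a single setting. The 95% intervals of the 44 members lay between -0.46 and 0.56 in brain and between -0.50 and 0.47 in liver, so a difference of 1 log2 unit in either direction lay outside each of them with this scaling.

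**Figure D1:**
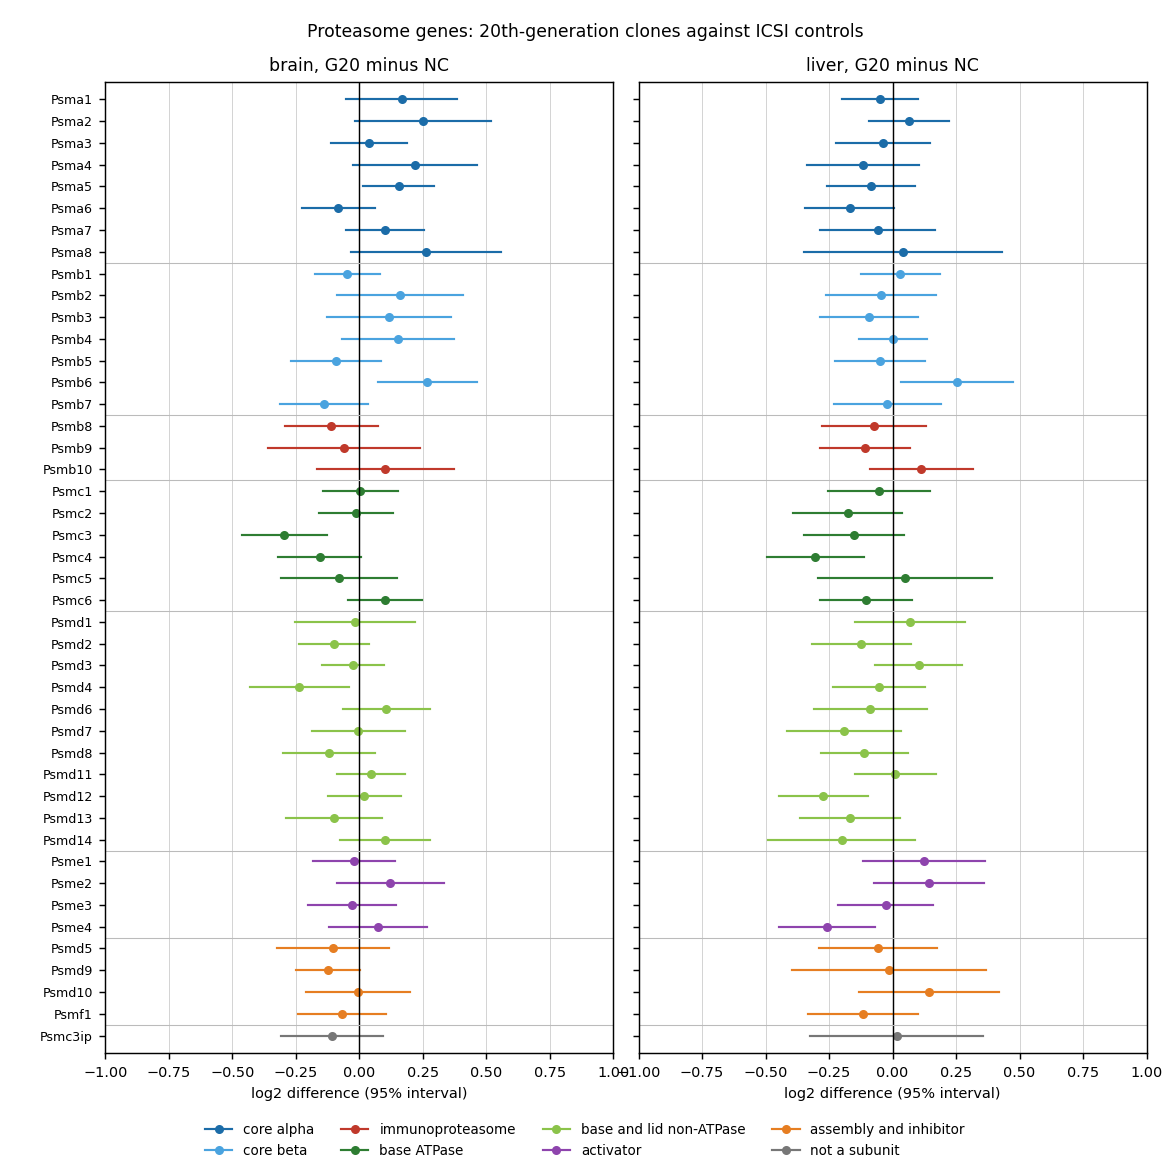
Log2 differences of G20 minus NC (x axis) for the 44 members (y axis, grouped by role) in brain (left) and liver (right). Points are fitted differences and lines their 95% intervals, from 4 arrays per group; brain points lie between -0.29 and 0.27 and liver points between -0.30 and 0.25.

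Among the constitutive catalytic subunits, Psmb6, which carries the caspase-like site, had the highest difference of all members in both tissues. In brain its levels were 3.90, 4.12, 4.00 and 4.02 in G20, against 3.69, 3.59, 3.98 and 3.71 in NC. The groups overlapped through the NC array at 3.98, and the difference was 0.27 ± 0.089 (SE, adjusted p = 0.140). In liver Psmb6 stood at 5.05, 5.02, 5.11 and 4.89 in G20, against 4.62, 4.64, 4.98 and 4.82 in NC. The groups overlapped again, and the difference was 0.25 ± 0.10 (SE, adjusted p = 0.154). Psmb5, which carries the chymotrypsin-like site, stood at 3.15, 3.30, 3.12 and 3.0 in G20 brain, against 3.34, 3.15, 3.14 and 3.31 in NC brain. In liver Psmb5 was at 3.46, 3.47, 3.45 and 3.43 in G20, against 3.52, 3.45, 3.53 and 3.51 in NC. The groups overlapped in both tissues, and the differences were -0.093 (95% interval -0.27 to 0.085) in brain and -0.050 (-0.23 to 0.13) in liver. Psmb7, which carries the trypsin-like site, was at 2.59, 2.89, 2.86 and 2.76 in G20 brain against 2.92, 2.92, 2.83 and 2.99 in NC brain, the lowest difference of the core beta group there. The groups overlapped at -0.14 (-0.31 to 0.035). In liver Psmb7 was at 2.46, 2.67, 2.71 and 2.75 in G20, against 2.69, 2.78, 2.45 and 2.76 in NC, with overlap (-0.021, interval -0.23 to 0.19). The lowest core beta difference in liver was that of Psmb3, a structural subunit, at -0.092 ± 0.088 (SE).

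The inducible subunits overlapped between G20 and NC in both tissues. Psmb9, the counterpart of Psmb6, stood at -3.63, -3.91, -4.01 and -3.85 in G20 brain, against -3.75, -3.75, -3.81 and -3.83 in NC brain. In liver its levels were 1.77, 1.64, 1.84 and 1.69 in G20, against 1.73, 1.82, 1.91 and 1.93 in NC. The differences were -0.060 (interval -0.36 to 0.24) in brain and -0.11 (-0.28 to 0.068) in liver. Psmb8, the counterpart of Psmb5, had the lowest difference of the 3 in brain, at -3.07, -3.37, -3.29 and -3.45 in G20 against -3.34, -3.14, -3.11 and -3.16 in NC (-0.11, interval -0.29 to 0.073). In liver Psmb8 was at 1.73, 1.41, 1.66 and 1.53 in G20, against 1.60, 1.62, 1.80 and 1.60 in NC (-0.073, interval -0.28 to 0.13). Psmb10 is the counterpart of Psmb7 and had the highest difference of the 3 in each tissue. It was at 1.98, 2.41, 2.13 and 1.82 in G20 brain against 2.11, 1.91, 2.0 and 1.92 in NC brain (0.10, interval -0.17 to 0.37). In liver it was at 4.56, 4.46, 4.34 and 4.26 in G20, against 4.33, 4.23, 4.32 and 4.29 in NC (0.11, interval -0.091 to 0.32). Under normexp background correction Psmb10 (0.65, adjusted p = 0.0459) and Psmb6 (0.84, adjusted p = 0.0483) passed the test in liver, where that correction called 30.8% of all genes and put their median at -0.047.

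The alpha subunits form the gate of the core. In brain 7 of 8 had a positive difference, against 10508 of 18299 genes, with a median of 0.16, and 0 passed the test. One of the 7, Psma3, was negative under quantile normalization, normexp background correction and the authors' deposited matrix. Psma8, the alternative alpha subunit known from testis, was the highest, at -3.94, -4.16, -4.19 and -4.14 in G20 brain against -4.47, -4.40, -4.52 and -4.10 in NC brain (0.26 ± 0.14, SE). Its unscaled signal was dim there, averaging 46.0 in G20 and 42.8 in NC. Psma5 was at 4.49, 4.56, 4.48 and 4.41 in G20 brain, against 4.35, 4.23, 4.36 and 4.37 in NC brain. The Psma5 groups did not overlap, and the difference was 0.16 ± 0.064 (SE, adjusted p = 0.213). The share of all genes whose groups did not overlap was not counted, in this comparison or any other. A lack of overlap, here or below, therefore does not set a member apart from other genes. Psma6 was the lowest, at -0.082 ± 0.067 (SE). In liver 2 of 8 alpha subunits had a positive difference (7 under normexp background correction, 0 with scaling by the median), against 9081 of 16364 genes. The median was -0.055, and the extremes were Psma2 at 0.065 ± 0.071 and Psma6 at -0.17 ± 0.080 (SE).

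The base ATPases unfold substrates, and 2 of them were near the threshold. Psmc3 stood at 1.83, 1.86, 2.0 and 1.91 in G20 brain, against 2.28, 2.23, 2.19 and 2.08 in NC brain. All 4 G20 arrays lay below all 4 NC arrays, and the difference was -0.29 ± 0.076 (SE, adjusted p = 0.0739). In liver Psmc3 differed by -0.15 ± 0.090 (SE, adjusted p = 0.329). Psmc4 stood at 3.0, 3.1, 3.20 and 2.84 in G20 liver, against 3.31, 3.40, 3.37 and 3.29 in NC liver. The groups did not overlap, and the difference was -0.30 ± 0.087 (SE, adjusted p = 0.0577), while the other Psmc4 probe gave 0.044. In brain Psmc4 differed by -0.16 ± 0.075 (SE, adjusted p = 0.280). The highest of the ATPases were Psmc6 in brain (0.10 ± 0.067) and Psmc5 in liver (0.048 ± 0.16, SE). Under quantile normalization Psmc3 was called lower in G20 brain (-0.34, adjusted p = 0.0469). With scaling by the median, Psmc4 (-0.38, adjusted p = 0.0350) and the lid subunit Psmd12 (-0.35, adjusted p = 0.0411) were called lower in G20 liver. Without G20 liver replicate 3, Psmc4 was called lower too (-0.36, adjusted p = 0.0422).

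In the base and lid, Psmd4, a ubiquitin receptor, was the lowest in brain at 2.29, 2.37, 2.47 and 2.44 in G20 against 2.64, 2.67, 2.50 and 2.70 in NC. The groups did not overlap, and the difference was -0.24 ± 0.089 (SE, adjusted p = 0.181), while the other Psmd4 probe gave -0.0022. The highest in brain was Psmd6, a lid subunit, at 0.11 ± 0.078 (SE). In liver the lowest was Psmd12, at 4.40, 4.63, 4.61 and 4.36 in G20 against 4.75, 4.77, 4.83 and 4.73 in NC. These groups did not overlap either (-0.27 ± 0.081, SE, adjusted p = 0.0644), while the other Psmd12 probes gave -0.16 and 0.0058. Psmd3, another lid subunit, was the highest in liver, at 0.10 ± 0.078 (SE). Psme4, a single-chain activator of the core, was at 4.90, 4.91, 4.84 and 4.63 in G20 liver against 5.04, 5.11, 4.97 and 5.20 in NC liver. This was the lowest of the activators, without overlap (-0.26 ± 0.087, SE, adjusted p = 0.0943). Psme2 was the highest activator in both tissues, at 0.12 ± 0.096 in brain and 0.14 ± 0.099 in liver, and Psme3 the lowest in brain at -0.030 ± 0.080 (SE). Among the assembly factors and inhibitors, the assembly chaperone Psmd9 had the lowest brain difference (-0.12 ± 0.058). The chaperone Psmd10 had the highest in both tissues, at -0.0038 ± 0.094 in brain and 0.14 ± 0.13 in liver. Psmf1, an inhibitor of the core, was the lowest of them in liver at -0.12 ± 0.099 (SE). The test of the difference between the tissues called 0 of 44 members (all genes, 3.87%), with 4 at an unadjusted p under 0.05 (all genes, 19.5%). Its smallest adjusted p belonged to Psmd12, at 0.0936 for a difference of 0.29 ± 0.097 (SE) by the probe used, while its other probes gave 0.12 and -0.11.

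Genes that work with the proteasome were read beside its subunits. In liver 1 of 23 proteasome partners passed the test: the shuttle factor Ubqln1, which carries ubiquitinated proteins to the proteasome, was lower in G20 (-0.30 ± 0.069, SE, adjusted p = 0.0232), but the call was lost under 8 of 19 alternatives, and under normexp background correction it was at 0.18. In brain 0 of 23 passed, and 2 in brain and 4 in liver had an unadjusted p under 0.05. For these lists and those below, the shares of all genes called were 1.79% in brain and 7.23% in liver. At an unadjusted p under 0.05 they were 19.2% and 23.8%. Of the ubiquitin and activating enzyme genes 0 of 7 were called in either tissue, with 2 in brain and 1 in liver at an unadjusted p under 0.05. Antigen processing genes gave 0 of 14 calls in brain and 0 of 15 in liver, with 2 and 4 at an unadjusted p under 0.05. Of the macrophage markers 1 of 8 was called lower in G20 brain, with a summed level of 3.06 to 3.47 times the 75th percentile in G20 against 3.54 to 3.92 in NC. The erythroid markers gave 0 of 5 calls in brain, with 4 at an unadjusted p under 0.05 and a median difference of 0.78. Their summed level was 197 to 215 in G20 against 80.1 to 174 in NC. In summed levels, here and below, a marker marked as an outlier on an array adds 0 to that array's sum. In liver 1 of 6 hepatocyte markers was called lower in G20, Ttr at -0.64 (adjusted p = 0.0460), with a summed level of 1277 to 1544 in G20 against 1334 to 1467 in NC. Their part in the member values was not tested, and in tissue samples fewer cells of a type and less RNA per cell cannot be told apart.

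The comparison of brain with liver asks in which tissue proteasome genes are higher. In G20 and NC the tissues were scanned in different sessions, so tissue and session cannot be told apart there. The members with the widest gaps were Psmb8 and Psmb9 of the immunoproteasome. Psmb8, Psmb9 and Psmb10 were all lower in brain than in liver in each of the 3 groups, without overlap. How many of all genes were without overlap between the tissues was not counted. Psmb9 was at -4.01 to -3.63 in brain and 1.64 to 1.84 in liver of G20. It was at -3.12 to -2.35 in brain and 1.56 to 1.78 in liver of CC, and at -3.83 to -3.75 in brain and 1.73 to 1.93 in liver of NC. These are differences of -5.59 ± 0.12 in G20, -4.39 ± 0.12 in CC and -5.63 ± 0.12 in NC (SE), or 48.0-fold, 20.9-fold and 49.6-fold lower in brain. The low brain level was above background on all 12 brain arrays: the unscaled signal of Psmb9 averaged 55.3 in G20, 66.2 in CC and 64.2 in NC, where the 5th percentile of probes above background was 17.2 to 22.8. Psmb8, read with 1 probe on all 24 arrays, stood at -3.47, -3.69, -3.68 and -3.55 in G20 brain, against 1.73, 1.41, 1.66 and 1.53 in G20 liver. In CC it was at -2.38, -2.23, -2.44 and -2.42 in brain, against 2.42, 2.15, 2.20 and 2.23 in liver. In NC it was at -3.55, -3.54, -3.40 and -3.40 in brain, against 1.60, 1.62, 1.80 and 1.60 in liver. Brain was lower by 36.2-fold in G20, 24.6-fold in CC and 35.0-fold in NC (-5.18, -4.62 and -5.13, each ± 0.084, SE). The other Psmb8 probe gave -5.04, -4.36 and -4.91. Psmb10 differed by -2.32 in G20, -1.26 in CC and -2.31 in NC (each ± 0.11, SE). The adjusted p of these 9 comparisons was at most 7.20e-10.

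**Figure D2:**
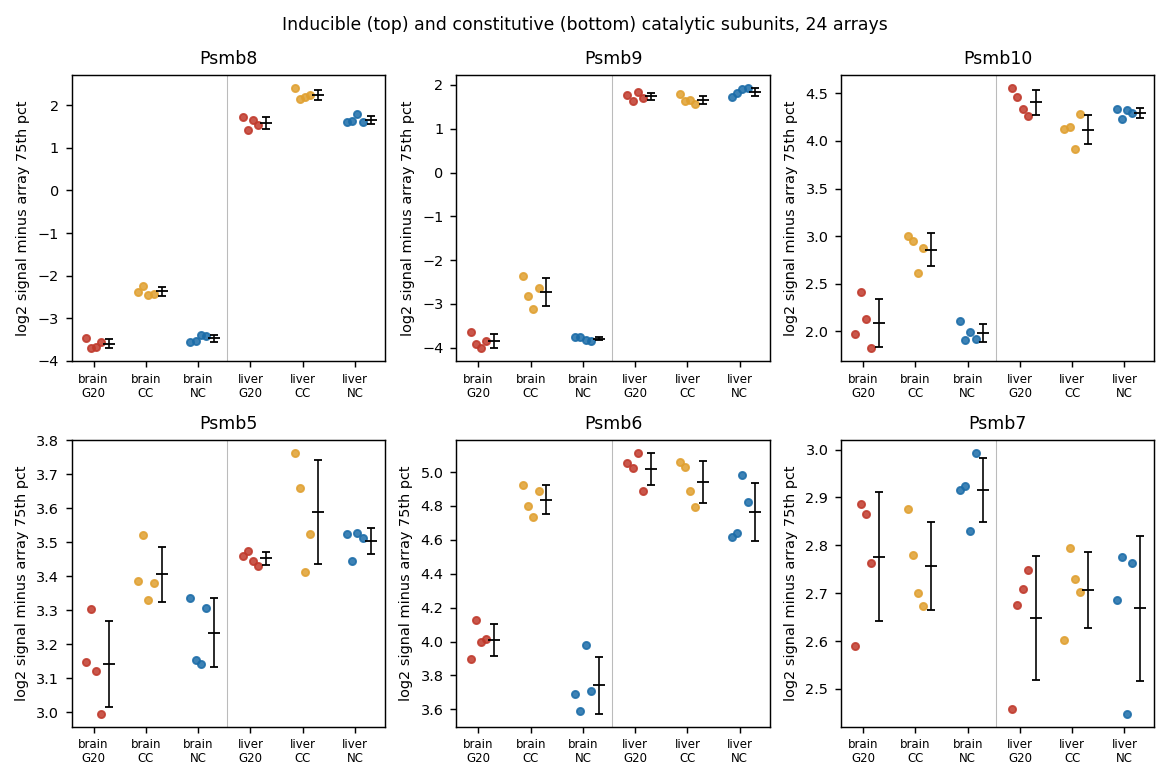
Levels on the 24 arrays (y axis, log2 signal minus the array's 75th percentile; scales differ between panels) of the inducible Psmb8, Psmb9 and Psmb10 and the constitutive Psmb5, Psmb6 and Psmb7, by tissue and group. Points are arrays and bars the mean ± SD of 4; the inducible subunits separate brain from liver in each group, with Psmb9 at -4.01 to -2.35 in brain and 1.56 to 1.93 in liver.

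Of the activators, Psme2 pairs with Psme1 in the interferon-induced cap. Psme2 was at 3.04, 3.07, 3.01 and 3.07 in G20 brain, against 5.80, 5.75, 5.85 and 5.75 in G20 liver. It was at 4.05, 3.76, 3.69 and 3.64 in CC brain, against 5.56, 5.14, 5.14 and 5.30 in CC liver, and at 3.13, 2.85, 2.88 and 2.83 in NC brain, against 5.60, 5.61, 5.57 and 5.79 in NC liver. No brain array reached a liver array of its group, and the differences were -2.74, -1.50 and -2.72 (each ± 0.098, SE). Psme3, which forms a nuclear activator, was at -1.48 in G20, -1.45 in CC and -1.48 in NC. Psme1 was at -1.20, -1.12 and -1.06 with this scaling, but at 0.010 in G20, -0.28 in CC and 0.26 in NC under quantile normalization. Psma8 was lower in brain too, at -3.75 in G20, -2.83 in CC and -3.97 in NC. Of the 4 Psme4 probes, 3 were called lower in brain in each group, at -1.92, -0.48 and -0.29 in G20 and -2.25, -0.51 and -0.51 in NC, with the probe used first. The remaining probe was brighter in brain, but in liver it was well above background on only 1 of 4 arrays in G20, 0 of 4 in CC and 1 of 4 in NC, so no difference is given for it. Psmc2, Psmc6, Psmd12, Psmd7 and Psmf1 likewise had probes called in opposite directions in G20 and in NC, and Psmc6 in CC.

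For many of the other subunits the direction of the tissue difference depended on the scaling. Over 7 settings tried, 13 of all members were lower in brain in each setting in G20, 11 in CC and 13 in NC. Those higher in brain in each setting were 5 in G20, 0 in CC and 2 in NC. With 75th-percentile scaling, 38 of 44 members were called in G20 (6 higher and 32 lower in brain), 31 in CC (2 higher and 29 lower) and 38 in NC (5 higher and 33 lower). Of all genes 89.1% were called in G20, 84.4% in CC and 89.1% in NC, with 43.4% higher and 45.7% lower in G20, 41.2% and 43.2% in CC, and 43.2% and 45.8% in NC. The median of the members was -0.78 in G20, -0.37 in CC and -0.77 in NC, against -0.064, -0.053 and -0.039 over all genes. Quantile normalization gave 17 higher and 16 lower in G20, 21 higher and 16 lower in CC, and 18 higher and 15 lower in NC. The authors' deposited matrix gave 21 higher and 17 lower in G20, 22 higher and 16 lower in CC, and 23 higher and 14 lower in NC, with the median of all genes at 0.68, 0.68 and 0.65. Scaling by the array median put the median of all genes at -0.43, -0.41 and -0.45 and gave 1 higher and 37 lower in G20, 0 higher and 42 lower in CC, and 0 higher and 39 lower in NC. Normexp background correction gave 2 higher and 26 lower in G20, 0 higher and 11 lower in CC, and 6 higher and 17 lower in NC.

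Of the constitutive catalytic subunits, Psmb5 was at -0.31, -0.18 and -0.27 in G20, CC and NC with 75th-percentile scaling, and at 0.35, 0.24 and 0.47 under quantile normalization. Psmb6 was at -1.01, -0.11 and -1.02 with the first scaling and at 0.12, 0.70 and 0.069 with quantile normalization. Psmb7 was at 0.13, 0.050 and 0.25 with 75th-percentile scaling and at -0.24, -0.31 and -0.16 with scaling by the median. The 7 members that were lower in brain and called in all 3 groups under each of 7 settings tried were Psmb8, Psmb9, Psmb10, Psme2, Psme3, Psma8 and, by the probe used, Psme4. Over those settings and groups Psmb8 lay between -5.55 and -3.21, Psmb9 between -6.04 and -2.82, Psmb10 between -2.72 and -0.85, and Psme2 between -3.13 and -0.82. No member was higher in brain by that standard. The share of all genes that met it, or that kept a direction in each setting, was not counted. Meeting it therefore does not set these members apart from other genes.

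**Figure D3:**
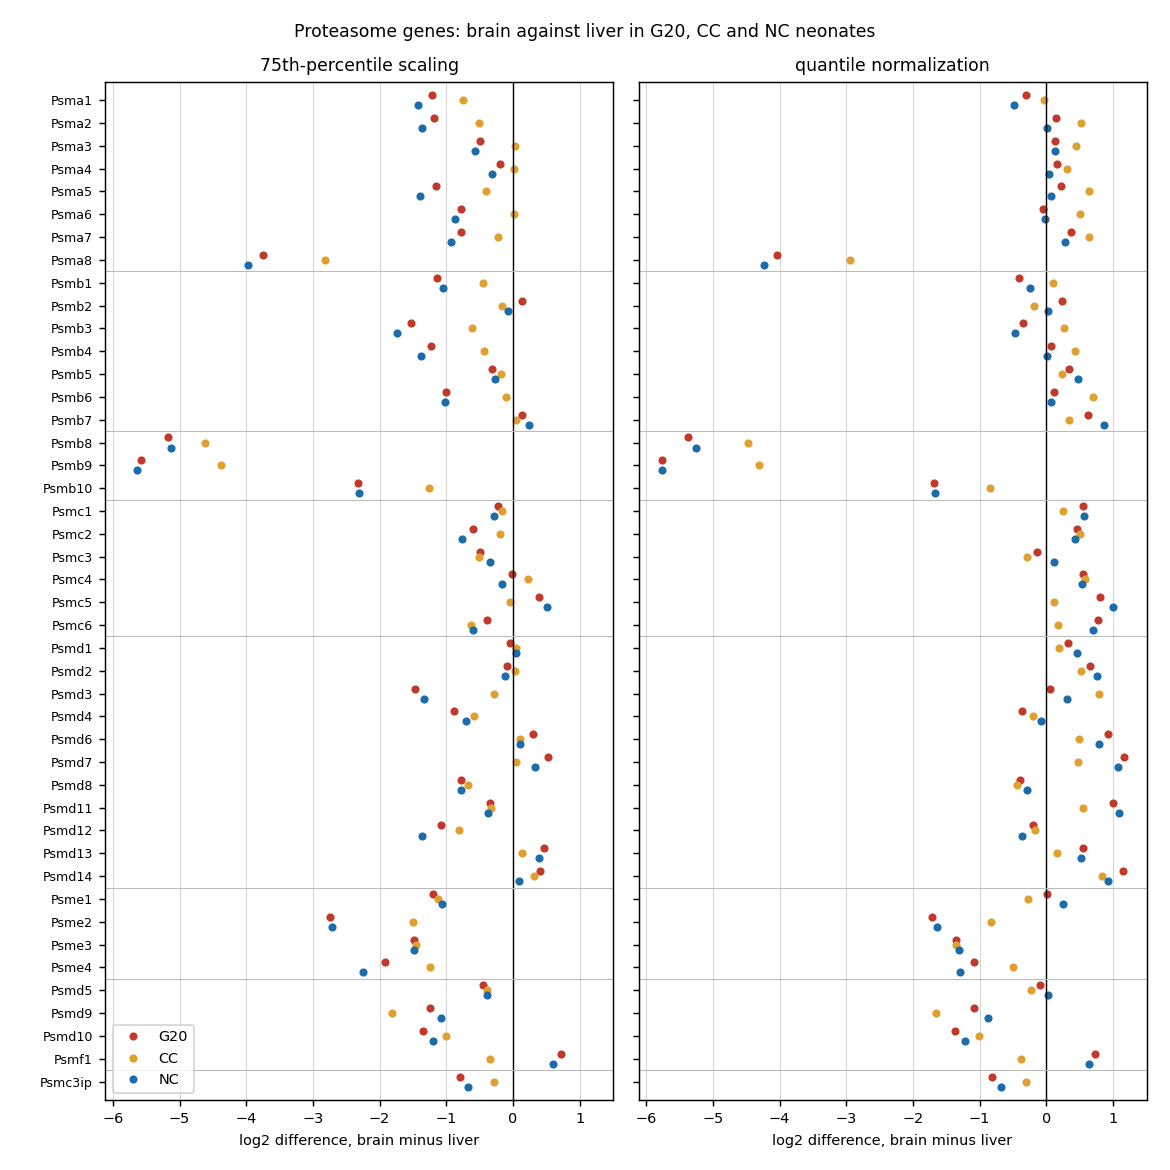
Log2 differences of brain minus liver (x axis) for the 44 members (y axis, in the order of roles) in G20, CC and NC, with 75th-percentile scaling (left) and quantile normalization (right). Many core and regulatory subunits lie on different sides of 0 in the panels, while Psma8, Psmb8, Psmb9, Psmb10, Psme2, Psme3 and Psme4 lie below it in both.

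Genes of antigen processing and marker lists of other cell types had these values in the same comparison. Of 15 antigen processing genes, 14 were lower in brain in each group, with medians of -4.10 in G20, -2.77 in CC and -4.30 in NC. The class I heavy chain H2-T23 was at -5.42, -5.06 and -5.71, and the class I light chain B2m at -4.77, -4.09 and -4.89. All 9 macrophage markers were lower in brain in each group. Their summed level, as a multiple of the 75th percentile, was 3.06 to 3.47 in brain and 50.6 to 60.6 in liver of G20, 5.85 to 6.39 in brain and 58.1 to 68.7 in liver of CC, and 3.54 to 3.92 in brain and 54.9 to 65.1 in liver of NC. The Kupffer cell marker Clec4f was above background on 0 brain arrays. All 4 lymphocyte markers tested were lower in brain too, with summed levels of 0.109 to 0.145 in brain and 5.96 to 8.61 in liver of G20, 0.150 to 0.182 in brain and 7.59 to 9.08 in liver of CC, and 0.107 to 0.124 in brain and 4.99 to 8.78 in liver of NC. These lymphocyte sums hold 5 genes, of which 1 was above background on all 4 arrays in each brain group, so the brain sums are partly background. The 7 erythroid markers were lower in brain as well. The part of these cells in the difference was not tested. Among the proteasome partners, 6 were higher and 15 lower in brain of 23 in G20, 9 and 13 in CC, and 7 and 15 in NC.

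In the comparison of CC with NC, a large share of the whole array was called. In brain 36 of 44 members were called, 27 higher and 9 lower in CC, where 69.2% of all genes were called (41.4% higher and 27.9% lower). In liver 20 of 44 were called, 10 higher and 10 lower, where 40.6% of all genes were called (19% higher and 21.6% lower). All 8 alpha subunits and all 3 immunoproteasome subunits were among those higher in CC brain. Psma5 stood at 5.36, 5.46, 5.46 and 5.52 in CC brain, against 4.35, 4.23, 4.36 and 4.37 in NC brain. The groups did not overlap, and the difference was 1.12 ± 0.064 (SE, adjusted p = 8.73e-08). Psmb6 was at 4.92, 4.80, 4.74 and 4.89 in CC brain, against 3.69, 3.59, 3.98 and 3.71 in NC brain (1.09 ± 0.089, SE), without overlap. Psmd3 (0.98), Psmb1 (0.81) and Psma7 (0.97) were higher in CC brain as well, and Psmd9 (-0.60) was lower by the probe used, while its other probe was at 0.045 and did not pass. Probes of one gene were called in opposite directions in brain for 4 members: Psme4 was at 1.24 by the probe used and between -0.96 and -0.66 by the other 3, Psmf1 at -0.93 and 0.31, Psmd12 at 0.58 and -0.77, and Psmd2 at 0.19 and -0.50. In liver the smallest p-values belonged to Psme3 (-0.58), Psmb8 (0.59), Psmb2 (-0.62), Psmd5 (-0.60), Psma2 (0.37), Psma6 (-0.41), Psmd1 (-0.51) and Psmd11 (0.35). The other Psmb8 probe was at -0.038 in liver and did not pass, and the Psmd7 probes were called in opposite directions there, at 0.46 and -0.64.

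CC arrays were scanned in a session of their own, so session and group cannot be told apart. Psmb8 differed by 0.51 in brain by the probe of the brain fit and by 1.10 by its other probe. The unscaled signal of that other probe averaged 83.5 in CC brain and 79.7 in NC brain. The 75th percentile that scales it was 403 to 467 in CC brain and 814 to 937 in NC brain. The unscaled mean signal was higher in CC brain than in NC brain for Psma2, Psma4, Psma5 and Psma8. For Psma1, Psma3, Psma6 and Psma7 it was lower. It was 18920 in CC and 17800 in NC for Psma5, and 5898 and 8761 for Psma6. In the authors' deposited matrix the log2 ratio to the scanner signal varied over probes with an SD of 0.623 to 0.649 on the 8 CC arrays, against 0.0100 to 0.0541 on the 16 other arrays. Over probes, that ratio correlated at r of at least 0.998 between CC brain arrays and at least 0.993 between CC liver arrays, and at 0.259 between the tissues. With the matrix values 1 of 44 members was called in brain (all genes, 0.659%) and 2 in liver (all genes, 8.99%). There, with each gene's probe chosen on the matrix values, Psma5 differed by 0.075 in brain, Psmb6 by 0.19 in brain, Psmb8 by 0.059 in brain and -0.020 in liver, and Psme4 by -0.0087 in brain. The difference between tissues in this comparison was called for 24 members, 21 higher and 3 lower (all genes, 54.3%, with 35.2% higher and 19.1% lower), with the scanner values and for 2 with the matrix. Macrophage markers were higher in CC brain for 6 of 8 tested, with a summed level of 5.85 to 6.39 in CC against 3.54 to 3.92 in NC. Neuron markers were lower in CC brain for 4 of 6 and higher for 1, with a summed level of 107 to 122 in CC against 114 to 120 in NC. In liver 2 of 2 neuron markers tested were higher in CC, with a summed level of 0.519 to 1.89 in CC against 0.302 to 0.348 in NC. Of the erythroid markers 2 of 5 were higher in CC brain (150 to 239 in CC against 80.1 to 174 in NC). In CC liver 2 of 7 were lower, while 4 of 7 had a positive difference. The median there was 0.12 and the lowest -0.49. No summed level is given for them in liver, because a marker marked as an outlier on an array adds 0 to it. Of the hepatocyte markers 2 of 3 tested were higher in CC brain, and 5 of 6 were lower in CC liver, with a summed level of 633 to 821 in CC against 1334 to 1467 in NC. Their part in the result was not tested.

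**Figure D4:**
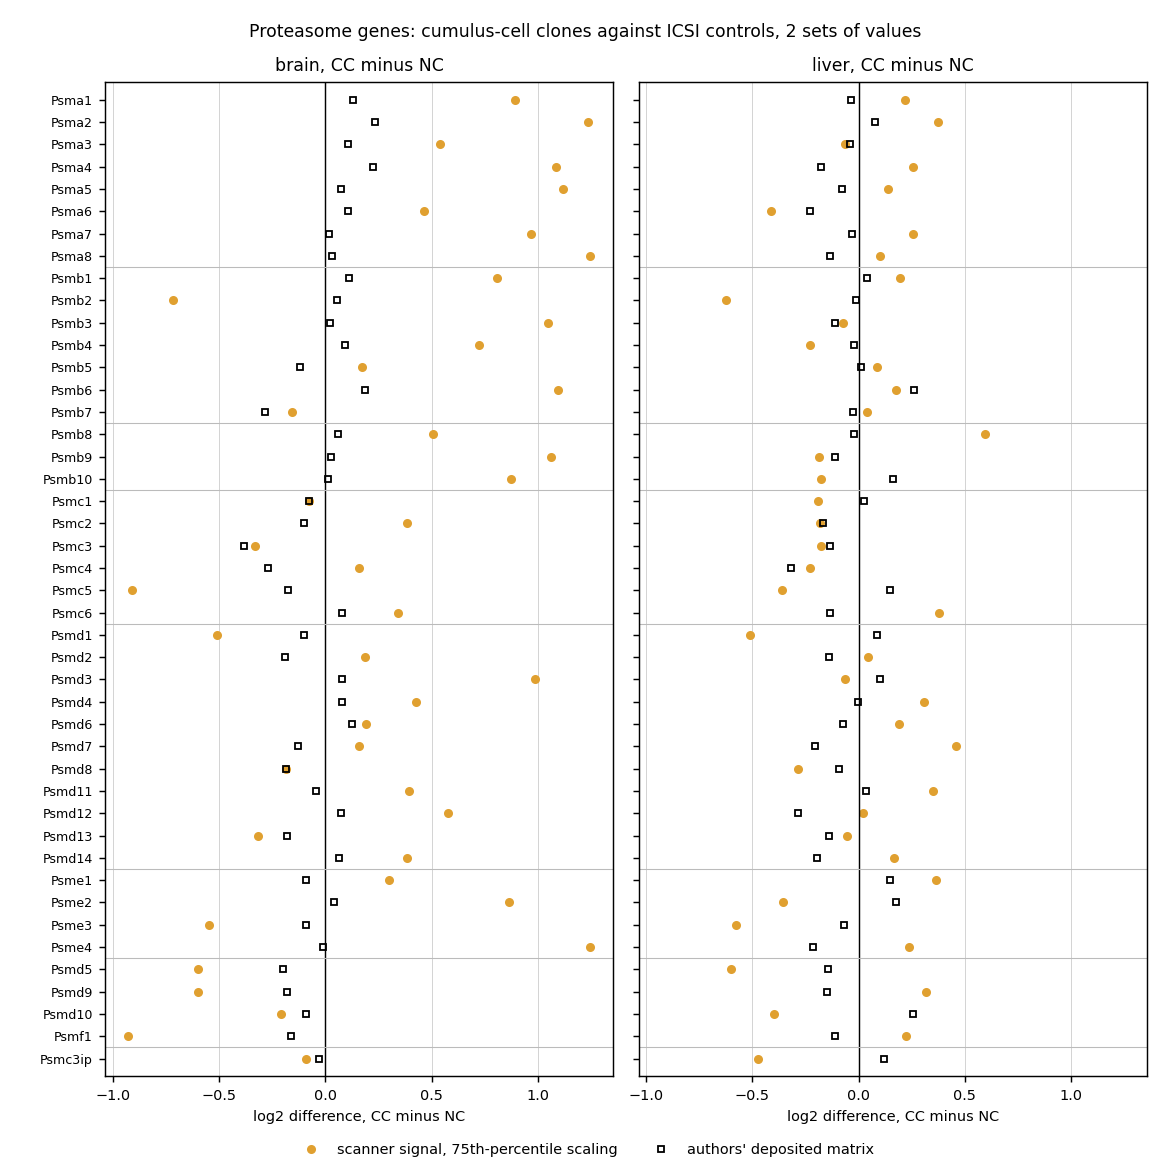
Log2 differences of CC minus NC (x axis) for the 44 members (y axis, in the order of roles) in brain (left) and liver (right), from the scanner signal with 75th-percentile scaling and from the authors' deposited matrix. In brain Psma5 lies at 1.12 with the scanner signal and at 0.075 with the matrix.

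G20 was also set against CC, a comparison that shares its arrays with those against NC. In brain 36 of 44 members were called, 8 higher and 28 lower in G20, where 67.5% of all genes were called (28.7% higher and 38.8% lower). In liver 25 were called, 10 higher and 15 lower, where 44.8% of all genes were called (25.2% higher and 19.6% lower). These counts are by the probe used. Probes of the same gene were called in opposite directions for Psmd12, Psmd2, Psme4 and Psmf1 in brain and for Psmd7 in liver. Psmd3 differed by -1.01 ± 0.056 and Psma5 by -0.97 ± 0.064 in brain (SE). In liver Psmb8 differed by -0.67 ± 0.094 (SE) by the probe used, while its other probe was at 0.064 and did not pass. With the authors' deposited matrix 0 of 44 were called in either tissue, where 1.30% of all genes in brain and 0.205% in liver were called.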

How the data were processed

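RNA from brain and liver was measured on Agilent single-colour arrays, 24 in all, 4 per group. Per the labels' protocols, RNA was extracted with Trizol, cleaned on columns and labelled with Cy3. Per the file headers, the authors' intensity values were made with Agilent Feature Extraction 9.5.3.1, with background subtraction and correction of trends within each array. The authors also deposited a matrix of intensity values, used as an alternative; its centring and scaling are unknown, its column medians were 224 to 489, and 0 of its columns were unused. From the deposited intensity, log2 values were computed and each array's 75th percentile subtracted. Control spots were left out, spots of a probe averaged, and each gene read by its probe with the highest mean. Groups were compared with limma 3.58.1 in R 4.3.3 (lmFit, eBayes), 1 fit over the 12 arrays of a tissue and, between tissues, 1 over all 24 with the animal's number left out of the model. P-values were Benjamini-Hochberg adjusted over all genes tested and called under 0.05; these tests were tried on simulated data. Alternatives were normexp background correction (offset 50), scaling by the median, quantile normalization, no filter on dim probes, the deposited matrix, each probe alone, fits of 2 groups, the replicate number as a block, and leaving out each array. Between tissues, that block was the number within each kind of animal. In NC and CC the same number in brain and liver marks the same animal, so the numbers pair those samples; deviations correlated at r of 0.017 to 0.167 over probes.

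The genes named were the catalytic subunits, the highest and lowest of each role in G20 vs NC, up to 8 called members with the smallest p-values per comparison, and called genes of the partner lists. Some others, such as Psma5 and Psme1, were named after their values were seen. The members and lists were chosen with earlier results of these data known. Some genes of the partner lists are not reported here by name.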

Additional observations from a re-analysis of the deposited data

Results flagged for a closer look

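Of 264 groups of 4 arrays, 44 members in 6 groups, 14 (5.3%) held an array whose gap to the nearest other array was large for the range of its group, by Dixon's test at the 95% level. Chance alone flags about 1 in 20 groups. The levels of these single arrays, on the scale used above, were Psmc3ip -0.31 (G20 brain), Psmc6 4.22 (G20 brain), Psmd11 4.81 (G20 brain), Psmd13 0.61 (NC brain), Psmd13 0.56 (G20 brain), Psmd3 4.66 (G20 brain) and Psmb4 5.61 (NC liver). The others were Psmb8 1.80 (NC liver), Psmc2 4.35 (G20 liver), Psmd14 3.39 (CC liver), Psmd14 2.87 (G20 liver), Psmd2 3.57 (CC liver), Psmd4 3.73 (CC liver) and Psme1 5.31 (NC liver). None of these members was called between G20 and NC in the tissue concerned.

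The difference between CC and NC was not the same in brain and liver for 24 members by limma's test of the interaction, with 54.3% of all genes called. The difference in brain minus the difference in liver was Psmd3 (1.05), Psma5 (0.98), Psma6 (0.88), Psme2 (1.22), Psme4 (1.01), Psmb4 (0.95), Psmb3 (1.12), Psmb9 (1.25), Psmb1 (0.61), Psmb6 (0.92), Psmb10 (1.05) and Psmf1 (-0.96) for 12 of them. It was Psma2 (0.86), Psma7 (0.71), Psma3 (0.60), Psma1 (0.68), Psmd12 (0.56), Psmc2 (0.57), Psma8 (1.14), Psmb8 (0.51), Psmd9 (-0.73), Psmc4 (0.39), Psmc5 (-0.55) and Psma4 (0.33) for the other 12. These values are those of the probe used. Other probes were called lower for Psme4 and Psmd12, with lowest values of -0.72 and -0.57. Psmc2, Psmc4 and Psmf1 had other probes on the other side of 0, at up to -0.34, -0.015 and 0.093, none of them called. CC arrays had their own scan session, and with the authors' deposited matrix 2 members were called in this test.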

How the results depend on the processing

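Other settings changed the counts of members called as follows. G20 vs NC in brain had 0 members called, 1 with quantile normalization. In liver it had 0, 2 with normexp and 2 with scaling by the median, and leaving out each array in turn gave 0 to 1. CC vs NC had 36 in brain and 20 in liver, 1 and 2 with the authors' deposited matrix and 20 and 0 with normexp. G20 vs CC had 36 and 25, 0 and 0 with the matrix and 18 and 5 with normexp. Brain vs liver had 31 in CC and 38 in NC, 11 and 23 with normexp. The tissue difference of CC vs NC had 24, 2 with the matrix and 1 with normexp. The causes were not tested. Over all genes, G20 vs NC called 328 in brain, against 2 with normexp, 141 with no filter on dim probes and 151 with the replicate block, and 1183 in liver, against 5043 with normexp and 729 with the block; leaving out each array in turn gave 132 to 525 in brain and 588 to 1405 in liver. Within a tissue the replicate numbers are shared only as numbers: deviations of same-numbered arrays correlated at r of -0.165 to 0.087. With the replicate number as a block the counts of members were 0, 35 and 36 in brain and 0, 17 and 22 in liver (G20 vs NC, CC vs NC, G20 vs CC). Between tissues the block was the number within each kind of animal, which pairs brain with liver. The counts were then 38, 31 and 39 for brain vs liver in G20, CC and NC, and 0 and 24 for the tissue differences of G20 and CC. For G20 the labels do not show that such a pair came from the same animal. CC vs NC, brain turned sign for Psme4 -0.0087 with the authors' deposited matrix. CC vs NC, liver turned sign for Psmb8 -0.020 and Psmd1 0.088 with the authors' deposited matrix. G20 vs CC, brain turned sign for Psma5 0.021, Psma7 0.029, Psmb10 0.056, Psmb6 0.023 and Psme4 0.037 with the authors' deposited matrix, for Psmb5 0.039 with quantile normalization. G20 vs CC, liver turned sign for Psmb10 -0.025, Psmb2 -0.035, Psmb8 0.055, Psmc6 0.060, Psmd1 -0.013 and Psmd7 0.036 with the authors' deposited matrix. G20 vs NC, liver turned sign for Ubqln1 0.18 with normexp. The tissue difference of CC vs NC turned sign for Psmb10 -0.15, Psmb6 -0.074, Psmd3 -0.021 and Psme2 -0.13 with the authors' deposited matrix. Brain vs liver, CC turned sign for Psmb5 0.14 with normexp, for Psmb5 0.24 and Psmb6 0.70 with quantile normalization, for Psmb5 0.60 with the authors' deposited matrix, for Psmb7 -0.31 with scaling by the median. Brain vs liver, G20 turned sign for Psmb5 0.35, Psmb6 0.12 and Psmd3 0.058 with quantile normalization, for Psmb5 0.63 with the authors' deposited matrix, for Psmb7 -0.24 with scaling by the median. Brain vs liver, NC turned sign for Psma5 0.074, Psmb5 0.47, Psmb6 0.069 and Psmd3 0.31 with quantile normalization, for Psmb5 0.41 with normexp, for Psmb5 0.73 with the authors' deposited matrix, for Psmb7 -0.16 with scaling by the median. Sign changes of values not called on either side are not listed. The number of arrays, 4 per group, limits the precision.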
